A study of Mus musculus with 16 samples.

Results

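The 9 genes described here mark glutamatergic neurons of the mouse cerebral cortex and the layers those neurons sit in: Camk2a, Slc17a7, Neurod2, Neurod6, Cux2, Rorb, Tbr1, Fezf2 and Bcl11b. They were chosen by name, by matching these symbols to the Ensembl gene IDs of the deposited count table, and all 9 were found among its 55573 gene IDs. RNA sequencing had been done on cortex taken from mice near postnatal day 180 that had received no treatment. The study holds 16 libraries in 4 groups of 4, and all groups are labelled with the strain C57BL/6. Aifm1-KI mice carry a knock-in allele of Aifm1 that lacks arginine 200 of the protein, and Aifm1-WT are their wild-type littermates. Hq-mut are Harlequin mice of the stock B6CBACa Aw-J/A-Aifm1Hq/J, whose mutation lies in the same gene, and Hq-WT are their own wild-type littermates. The protein made from Aifm1, apoptosis-inducing factor, sits in mitochondria and is needed to build the respiratory chain. The labels give no sex, and they do not state that each library came from a separate animal, so every p-value below measures the spread between these libraries.

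Excitatory neurons of the cortex are born from progenitors of the dorsal forebrain and settle in layers, with the deep layers made before the upper ones. Basic helix-loop-helix factors of the NeuroD family drive their differentiation, and a small set of transcription factors that repress each other then separates neurons that project within the cortex from neurons that project to the thalamus, brainstem and spinal cord. In adult cortex many of these factors stay on at a low level and serve as layer markers, while mature neurons express much more of the transporters and kinases of the glutamate synapse.

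Depth was between 10671580 counts (Hq-WT 3) and 32551594 counts (Aifm1-KI 2), and the members had between 400 and 102290 counts in a library. Counting error is thus small beside the larger differences between libraries. It is not small beside the least, such as those of Bcl11b within Aifm1-WT (SD of log2 CPM 0.04). Aifm1 itself fell in Hq-mut, to 2.23 to 4.01 CPM (counts relative to library size, scaled between libraries with TMM factors) against 23.1 to 25.8 CPM in Hq-WT (log2 fold change -2.87, adjusted p = 0.000348 with edgeR, SE 0.19). In Aifm1-KI it was at 21.7 to 25.8 CPM against 21.5 to 23.5 CPM in Aifm1-WT (0.08, adjusted p = 0.679 with edgeR, SE 0.07), and a count over the whole gene does not check a deletion of 1 codon. Markers of tissue outside the cortex were uneven between libraries. The summed level of 13 striatal markers was 676 CPM in Aifm1-KI 2, 615 CPM in Aifm1-KI 4 and 897 CPM in Hq-mut 3, and 230 to 380 CPM in the other 13 libraries. Of these markers Isl1 was at 0 in 6 libraries and the rest were detected in all 16. Choroid plexus markers summed to 2812 CPM in Aifm1-KI 2 and 5484 CPM in Hq-WT 2, against at most 379 CPM elsewhere, and liver transcripts summed to 22.4 to 306 CPM in Aifm1-WT against at most 13.3 CPM in the other groups. The 6 hippocampal markers summed to 17.6 to 41.7 CPM over all libraries. Member values and list counts that move with Aifm1-KI 2 and 4 are also given without them. In whole tissue, fewer cells of a type and less RNA per cell cannot be told apart.

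The promoters of 3 members on which the results turn are shown first: Neurod6 and Neurod2, the NeuroD pair, which stood in opposite order in the wild types of the lines, and Rorb, the member with the widest spread in Hq-mut. Each run covers 247 bases, from 250 to 4 bases before the RefSeq start, 5′ to 3′ on the gene's strand, from RefSeq on GRCm38.p6. All 3 genes lie on the minus strand, and the windows are chr6:55681267-55681513 for Neurod6, chr11:98329649-98329895 for Neurod2 and chr19:19111200-19111446 for Rorb, the last at the most upstream of 2 RefSeq starts. Capitals mark matches to a motif.
Neurod6: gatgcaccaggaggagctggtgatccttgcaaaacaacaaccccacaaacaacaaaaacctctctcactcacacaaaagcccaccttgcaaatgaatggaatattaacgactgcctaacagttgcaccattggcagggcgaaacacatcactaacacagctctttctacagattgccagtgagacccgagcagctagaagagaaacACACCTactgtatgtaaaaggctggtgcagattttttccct
Neurod2: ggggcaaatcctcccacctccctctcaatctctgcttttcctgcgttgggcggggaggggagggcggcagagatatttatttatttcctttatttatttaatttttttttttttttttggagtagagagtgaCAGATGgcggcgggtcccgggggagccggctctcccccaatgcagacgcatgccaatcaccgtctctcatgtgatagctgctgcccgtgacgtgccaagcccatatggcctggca
Rorb: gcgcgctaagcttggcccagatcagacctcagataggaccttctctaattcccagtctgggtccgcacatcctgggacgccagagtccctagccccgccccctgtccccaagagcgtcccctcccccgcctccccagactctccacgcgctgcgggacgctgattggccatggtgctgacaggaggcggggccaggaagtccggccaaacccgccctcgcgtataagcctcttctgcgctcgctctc

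Capitals in these runs come from a search of both strands for 3 short motifs, and no match overlapped another. The E-box CAGATG, a form that NeuroD factors are known to bind, occurred 1 time in the Neurod2 window and not in the others. The T-box core AGGTGT, which Tbr1-type factors bind, occurred 1 time in the Neurod6 window as its reverse complement ACACCT. The half-site AGGTCA, bound by ROR receptors, was in none of the 3. Among 32851 windows of the same length, 14.4% held the E-box, 11.7% the T-box core and 13.9% the ROR half-site. The Rorb window had a GC content of 66.0%, that of Neurod2 53.0% and that of Neurod6 46.2%.

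Levels of the members can be compared with each other only per length of transcript, as CPM per kb of exon. Over all 16 libraries Camk2a stood at 444 CPM per kb and Slc17a7 at 277 CPM per kb. The transcription factors were far below, from Neurod6 at 39.6, Neurod2 at 38.3 and Tbr1 at 32.2 CPM per kb, through Cux2 at 15.97, Fezf2 at 15.1 and Bcl11b at 11.2 CPM per kb, to Rorb at 5.60 CPM per kb. In both wild-type groups the ranges of Camk2a, Slc17a7 and the next gene were separate, and so were those of Tbr1 and Cux2, of Fezf2 and Bcl11b, and of Bcl11b and Rorb. Cux2 and Fezf2 were neighbours whose ranges overlapped in both wild-type groups. Neurod2 and Neurod6 stood in opposite order in the wild types: Neurod2 led in Aifm1-WT, at 42.8 ± 3.47 CPM per kb (SD, n = 4) against 32.9 ± 3.42 CPM per kb (SD, n = 4) for Neurod6, with no overlap. In Hq-WT Neurod6 was at 43.5 ± 4.51 CPM per kb (SD, n = 4) and Neurod2 at 35.6 ± 2.67 CPM per kb (SD, n = 4), and their ranges overlapped. In Aifm1-KI each of the 7 transcription factors overlapped its neighbour in the order, and Bcl11b, at 13.4 ± 3.99 CPM per kb (SD, n = 4), stood above Cux2, at 12.6 ± 3.38 CPM per kb (SD, n = 4), the reverse of their order in Aifm1-WT. In Hq-mut Fezf2, Cux2 and Bcl11b overlapped one another, and Rorb was again the lowest, at 5.50 ± 2.83 CPM per kb (SD, n = 4).

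**Figure D1:**
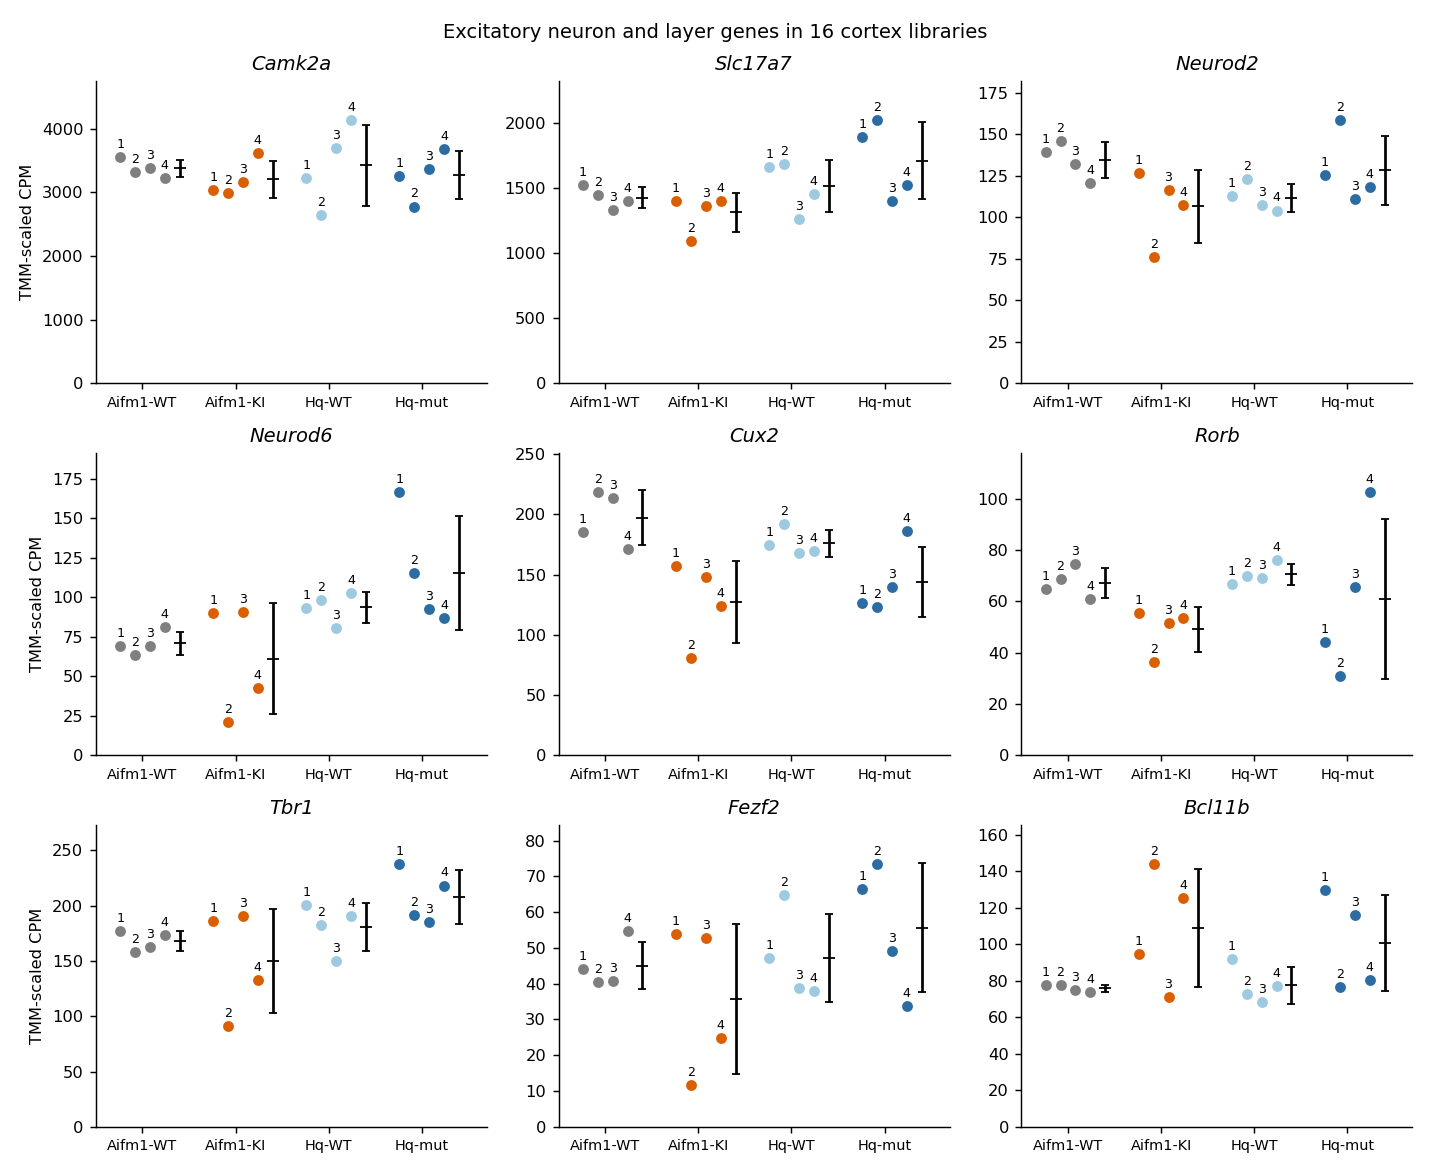
TMM-scaled CPM of the 9 genes (y axis, from 0) in each of 16 cortex libraries (points, numbered by replicate) in 4 groups (x axis), with the mean and SD of each group as a bar. Cux2 and Rorb were lower in the 4 Aifm1-KI libraries than in the 4 Aifm1-WT libraries, Neurod6 was lower in Aifm1-KI 2 and 4 than in the other 14 libraries, and Rorb in Hq-mut ran from 31.0 to 103 CPM.

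None of the 9 genes passed the threshold (Benjamini-Hochberg adjusted p under 0.05 over all genes tested) in either mutant with edgeR's quasi-likelihood test, with DESeq2 or with limma-voom. In Aifm1-KI edgeR called 0 of 18383 genes (0%), DESeq2 82 and limma-voom 0. At an unadjusted p under 0.05 edgeR listed 2094 genes, 11.4% of those tested, and 4 of the 9 members: Cux2, Rorb and Neurod2 lower and Bcl11b higher. Over all genes 7.05% were higher and 4.34% lower at that level. In Hq-mut edgeR called 3 of 17969 genes (0.0167%), Aifm1 among them, and 385 (2.14%) had an unadjusted p under 0.05, of which 1 was a member, Cux2, lower, beside 1.19% lower over all genes. Same-numbered Hq libraries vary together, and with the replicate number as a block edgeR again called 3 genes (0.0167%), while 1433 (7.97%) had an unadjusted p under 0.05, 3 of them members: Cux2 lower, beside 4.16% lower over all genes, and Bcl11b and Tbr1 higher, beside 3.81% higher.

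Camk2a and Slc17a7 belong to the working glutamate synapse. Camk2a (ENSMUSG00000024617) is the alpha subunit of calcium/calmodulin-dependent kinase II, a main protein of the postsynaptic density. Its level was 3037, 2988, 3157 and 3621 CPM in Aifm1-KI 1 to 4 and 3560, 3323, 3384 and 3231 CPM in Aifm1-WT 1 to 4. In Hq-mut 1 to 4 it was 3261, 2776, 3368 and 3674 CPM, and in Hq-WT 1 to 4 it was 3229, 2644, 3691 and 4128 CPM. All groups overlapped, and the second pair of Hq libraries was the lowest of its line in both genotypes. The log2 fold change was -0.06 (adjusted p = 0.767 with edgeR, SE 0.07) in Aifm1-KI and -0.09 (adjusted p = 1 with edgeR, SE 0.16) in Hq-mut, or -0.08 (adjusted p = 0.819 with edgeR, SE 0.07) with the pairs as a block. The 95% interval of the paired value ran from -0.25 to 0.09.

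Slc17a7 (ENSMUSG00000070570, chromosome 7, 45163949 to 45176142 of GRCm38, plus strand) encodes VGLUT1, the transporter that loads glutamate into vesicles of most cortical excitatory neurons. It was at 1398, 1090, 1363 and 1401 CPM in Aifm1-KI 1 to 4 and at 1524, 1445, 1335 and 1401 CPM in Aifm1-WT 1 to 4. In the Hq line it was at 1895, 2020, 1398 and 1524 CPM in Hq-mut 1 to 4 and at 1665, 1685, 1264 and 1458 CPM in Hq-WT 1 to 4. Aifm1-KI 2 stood below every other library, and the other 3 Aifm1-KI libraries lay within the wild-type range. In every Hq pair the mutant was the higher of its pair, by 0.19, 0.26, 0.15 and 0.06 on the log2 scale in pairs 1 to 4. The log2 fold changes were -0.11 (adjusted p = 0.66 with edgeR, SE 0.09) in Aifm1-KI and 0.14 (adjusted p = 0.657 with edgeR, SE 0.07) in Hq-mut with the pairs as a block. Over all genes tested, 11.9% were higher in all 4 pairs.

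Among the relatives of these genes, Camk2g, another subunit of the kinase, was at 297, 205, 328 and 239 CPM in Aifm1-KI 1 to 4 and 324 to 357 CPM in Aifm1-WT, which puts the fold change at -0.34 on the log2 scale (adjusted p = 0.401 with edgeR, SE 0.13). Camk2d, the delta subunit, was lower in Hq-mut at -0.40 (adjusted p = 1 with edgeR, SE 0.23). Its paired value was -0.36 (adjusted p = 0.528 with edgeR, SE 0.11). Slc17a6 encodes VGLUT2, the transporter of thalamic and other subcortical neurons, and was at 38.8, 84.7, 59.0 and 43.8 CPM in Aifm1-KI 1 to 4 against 32.1 to 49.9 CPM in Aifm1-WT (0.58, adjusted p = 0.421 with edgeR, SE 0.23). The highest of these values was in Aifm1-KI 2, the library in which 7 thalamic markers summed to 127 CPM against 45.4 to 92.1 CPM elsewhere. Slc17a6 is itself among these 7 and gave 84.7 CPM of that sum, so the sum is not separate from its own value. With Aifm1-KI 2 and 4 left out, the log2 fold change was 0.35 for Slc17a6 and -0.12 for Camk2g. Slc17a8 encodes VGLUT3 and was higher in each Hq-mut library, at 6.08 to 9.72 CPM, than in any Hq-WT library, at 5.28 to 6.02 CPM (0.45, adjusted p = 1 with edgeR, SE 0.17). In the paired fit it was at 0.43 (adjusted p = 0.591 with edgeR, SE 0.15). Of the 11 relatives tested, 2 had groups apart with Hq-mut higher, beside 0.857% of all genes. Over the 11 relatives that could be tested, 3 were higher and 8 lower in Aifm1-KI. In Hq-mut 5 were higher and 6 lower, or 4 higher and 7 lower with the pairs as a block, and none was called.

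Neurod2 and Neurod6 are basic helix-loop-helix factors that are switched on as cortical neurons leave the cell cycle and stay on in adult excitatory neurons. Neurod2 (ENSMUSG00000038255, chromosome 11, 98325415 to 98329648 of GRCm38, minus strand) was at 127, 75.8, 117 and 107 CPM in Aifm1-KI 1 to 4 and at 139, 146, 132 and 120 CPM in Aifm1-WT 1 to 4. In Hq-mut 1 to 4 it was at 126, 158, 111 and 119 CPM and in Hq-WT 1 to 4 at 113, 123, 107 and 104 CPM. The Aifm1 groups overlapped through Aifm1-KI 1 alone, and the mutant was the higher one in all 4 Hq pairs. The log2 fold change was -0.32 (SE 0.14, unadjusted p = 0.0461, adjusted p = 0.432 with edgeR) in Aifm1-KI and 0.16 (adjusted p = 0.641 with edgeR, SE 0.07) in Hq-mut with the pairs as a block. Leaving out Aifm1-KI 2 and 4, the first value was -0.13 (adjusted p = 0.872 with edgeR, SE 0.08).

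Neurod6 (ENSMUSG00000037984, chromosome 6, 55677822 to 55681263 of GRCm38, minus strand), a marker of adult neocortical excitatory neurons, separated the Aifm1-KI libraries from each other. It was at 90.1, 20.6, 90.5 and 42.4 CPM in Aifm1-KI 1 to 4 and at 69.3, 63.6, 68.9 and 81.0 CPM in Aifm1-WT 1 to 4. Aifm1-KI 1 and 3 were thus above all wild types and Aifm1-KI 2 and 4 below all of them. The SD of log2 CPM within Aifm1-KI was 1.02, larger than that of 99.2% of 11994 genes, against 0.15 in Aifm1-WT. The log2 fold change of -0.22 (adjusted p = 0.857 with edgeR, SE 0.38) became 0.37 (adjusted p = 0.799 with edgeR, SE 0.09) without Aifm1-KI 2 and 4. Those are the libraries with striatal markers at 676 and 615 CPM, and oligodendrocyte markers, at 1710 and 2544 CPM there against 3623 and 3886 CPM in Aifm1-KI 1 and 3, were lowest in them as well, and the part of tissue makeup in the Neurod6 values was not tested beyond that fit.

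In the Harlequin line Neurod6 was at 166, 115, 92.6 and 86.5 CPM in Hq-mut 1 to 4 and at 93.2, 97.9, 80.2 and 103 CPM in Hq-WT 1 to 4. Hq-mut 1 and 2 were above all wild types and Hq-mut 3 and 4 within their range. The log2 fold change was 0.28 (adjusted p = 1 with edgeR, SE 0.19), or 0.23 (adjusted p = 0.721 with edgeR, SE 0.15) with the pairs as a block, and without pair 1 the paired value was 0.04 (adjusted p = 0.998 with edgeR, SE 0.12). Neurod1, the family member known from newborn neurons and the dentate gyrus, was at 9.89, 11.6, 10.8 and 12.8 CPM in Hq-mut 1 to 4 and at 20.1, 20.4, 16.6 and 12.2 CPM in Hq-WT 1 to 4. Its log2 fold change was -0.65 (adjusted p = 1 with edgeR, SE 0.17), with 1 wild-type library inside the mutant range. In the paired fit it was -0.63 (adjusted p = 0.523 with edgeR, SE 0.17).

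Cux2 and Rorb stand for the upper layers. Cux2 (ENSMUSG00000042589, chromosome 5, 121856366 to 122050102 of GRCm38, minus strand) is a homeodomain factor of the neurons that connect cortical areas and shapes their dendrites and spines. It was at 157, 80.4, 148 and 124 CPM in Aifm1-KI 1 to 4 and at 185, 218, 214 and 172 CPM in Aifm1-WT 1 to 4. Every mutant library was below every wild type, and Aifm1-KI 2 was the lowest of the 16 libraries. The log2 fold change was -0.62 (SE 0.19, unadjusted p = 0.00777, adjusted p = 0.368 with edgeR), the largest among the 9 genes in this line. Without Aifm1-KI 2 and 4 it was -0.36 (adjusted p = 0.799 with edgeR, SE 0.10).

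In Hq-mut 1 to 4 Cux2 was at 127, 123, 140 and 186 CPM, and in Hq-WT 1 to 4 at 174, 192, 168 and 169 CPM. The first 3 mutants were below all wild types and the last was above 3 of them. Pair by pair the log2 ratio of mutant to wild type was -0.46, -0.65, -0.27 and 0.14. The fold change, as log2, was -0.31 (SE 0.14, unadjusted p = 0.044, adjusted p = 1 with edgeR) without the pairs and -0.33 (SE 0.12, unadjusted p = 0.0192, adjusted p = 0.591 with edgeR) with them. Leaving out pair 4, it was -0.49 (adjusted p = 0.465 with edgeR, SE 0.10), and leaving out pair 2 it was -0.21 (adjusted p = 0.383 with edgeR, SE 0.10).

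Rorb (ENSMUSG00000036192, chromosome 19, 18930605 to 19111196 of GRCm38, minus strand), a nuclear receptor of the middle layer that receives thalamic input, gave the same order in the knock-in. It was at 55.4, 36.3, 51.6 and 53.5 CPM in Aifm1-KI 1 to 4 and at 64.8, 68.8, 74.8 and 61.0 CPM in Aifm1-WT 1 to 4. The groups did not overlap, and the log2 fold change was -0.44 (SE 0.13, unadjusted p = 0.00705, adjusted p = 0.368 with edgeR). With Aifm1-KI 2 and 4 left out, it was -0.32 (adjusted p = 0.799 with edgeR, SE 0.09). Cux2 and Rorb were the only members whose Aifm1 groups were apart, 2 of 9, and over all genes 2.83% were apart with the mutant lower.

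The Hq-mut libraries differed more from each other in Rorb than in any other member. Rorb was at 44.3, 31.0, 65.8 and 103 CPM in Hq-mut 1 to 4 and at 66.8, 70.1, 69.3 and 76.4 CPM in Hq-WT 1 to 4. Hq-mut 2 was the lowest of all 16 libraries and Hq-mut 4 the highest. The SD of log2 CPM within Hq-mut was 0.74, larger than that of 98.4% of 11994 genes, against 0.08 in Hq-WT. The paired log2 fold change was -0.37 (adjusted p = 0.702 with edgeR, SE 0.22) over log2 ratios of -0.59, -1.18, -0.07 and 0.43. Without pair 4 it was -0.64 (adjusted p = 0.657 with edgeR, SE 0.19), and without pair 2 it was -0.09 (adjusted p = 0.837 with edgeR, SE 0.16), so that it rested on which pair was kept.

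Tbr1, Fezf2 and Bcl11b stand for the deep layers. Tbr1 (ENSMUSG00000035033, chromosome 2, 61802930 to 61814114 of GRCm38, plus strand) is a T-box factor of neurons that project to the thalamus and is also present in other excitatory neurons. It was at 186, 91.4, 190 and 133 CPM in Aifm1-KI 1 to 4 and at 177, 158, 163 and 174 CPM in Aifm1-WT 1 to 4. As with Neurod6, Aifm1-KI 1 and 3 were above all wild types and Aifm1-KI 2 and 4 below them. On the log2 scale the fold change was -0.15 (adjusted p = 0.798 with edgeR, SE 0.20), and 0.18 (adjusted p = 0.799 with edgeR, SE 0.06) without Aifm1-KI 2 and 4.

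In Hq-mut 1 to 4 Tbr1 was at 238, 192, 185 and 218 CPM and in Hq-WT 1 to 4 at 201, 182, 150 and 191 CPM. The groups overlapped, but the mutant was the higher one in all 4 pairs, by 0.24, 0.07, 0.30 and 0.19 on the log2 scale. Its log2 fold change was 0.18 both without the pairs (adjusted p = 1 with edgeR, SE 0.12) and with them (SE 0.07, unadjusted p = 0.0272, adjusted p = 0.591 with edgeR). Tbr1, Bcl11b, Slc17a7 and Neurod2 were the 4 members higher in all 4 pairs, beside 11.9% of all genes, and no member was lower in all 4, beside 6.88% of all genes.

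Fezf2 (ENSMUSG00000021743, chromosome 14, 12342094 to 12348189 of GRCm38, minus strand) is the zinc-finger factor that specifies neurons projecting to the brainstem and spinal cord. It was at 53.9, 11.7, 52.7 and 24.9 CPM in Aifm1-KI 1 to 4 and at 44.2, 40.5, 40.8 and 54.7 CPM in Aifm1-WT 1 to 4. Aifm1-KI 2 and 4 were again the low libraries, and the SD of log2 CPM within Aifm1-KI was 1.04, against 0.20 in Aifm1-WT. The fold change, as log2, was -0.34 (adjusted p = 0.764 with edgeR, SE 0.40) with them and 0.26 (adjusted p = 0.803 with edgeR, SE 0.11) without them. In the Harlequin line Fezf2 was at 66.6, 73.5, 49.1 and 33.6 CPM in Hq-mut 1 to 4 and at 47.2, 64.7, 38.7 and 38.1 CPM in Hq-WT 1 to 4. Here Hq-mut 4, the library with the highest Rorb, had the lowest Fezf2 of the line, and the paired log2 fold change was 0.19 (adjusted p = 0.702 with edgeR, SE 0.11).

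Bcl11b (ENSMUSG00000048251, chromosome 12, 107910403 to 108003602 of GRCm38, minus strand), known as Ctip2, acts downstream of Fezf2 in subcortically projecting neurons and is also abundant in the projection neurons of the striatum. It was at 94.8, 144, 70.9 and 125 CPM in Aifm1-KI 1 to 4 and at 77.6, 77.7, 74.7 and 74.0 CPM in Aifm1-WT 1 to 4. Of the 9 genes it was the only one that was higher in Aifm1-KI on average, and its order over the 4 libraries was opposite to that of Fezf2 in Aifm1-KI 2 and 4. On the log2 scale the fold change was 0.53 (SE 0.18, unadjusted p = 0.0142, adjusted p = 0.373 with edgeR). Without Aifm1-KI 2 and 4, whose striatal sums were the highest of the line, it was 0.14 (adjusted p = 0.893 with edgeR, SE 0.10).

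In the Harlequin line Bcl11b was at 130, 76.7, 116 and 80.3 CPM in Hq-mut 1 to 4 and at 91.9, 72.8, 68.1 and 77.0 CPM in Hq-WT 1 to 4. Hq-mut 1 and 3 were above all wild types, and their striatal sums of 380 and 897 CPM were the highest of the line. The order did not match, as Bcl11b was highest in Hq-mut 1. The striatal sum of that library was near the 337 CPM of Hq-mut 4, where Bcl11b was at 80.3 CPM. The paired log2 fold change was 0.32 (SE 0.12, unadjusted p = 0.0249, adjusted p = 0.591 with edgeR), and 0.19 (adjusted p = 0.941 with edgeR, SE 0.11) without pair 3. All 12 striatal markers that could be tested were higher in each mutant, with median log2 fold changes of 1.25 in Aifm1-KI and 1.09 in Hq-mut, where the medians of all genes were 0.01 and 0.01. With the pairs as a block the Hq-mut median was 0.77, and 0.22 without pair 3, with 9 markers higher and 3 lower. Without the block, leaving out pair 3 gave a median of 0.24, with 8 markers higher and 4 lower. Leaving out Aifm1-KI 2 and 4, the Aifm1-KI median was 0.44, with 11 higher and 1 lower. The part of striatal RNA in the Bcl11b values was not tested beyond these fits.

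**Figure D2:**
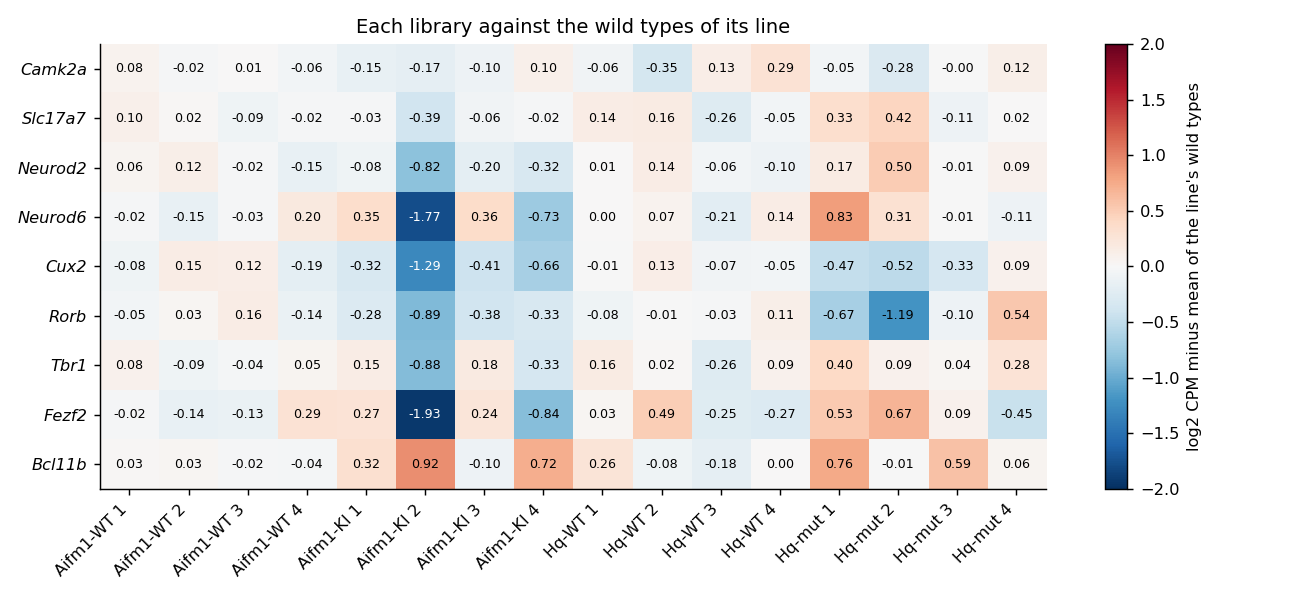
Difference in log2 CPM between each of 16 libraries (columns) and the mean of the wild types of its line (colour scale and printed values, log2), for the 9 genes (rows). Aifm1-KI 2 was lower in 8 genes, down to -1.93 for Fezf2, and higher in Bcl11b, by 0.92, and Rorb ran from -1.19 in Hq-mut 2 to 0.54 in Hq-mut 4.

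**Figure D3:**
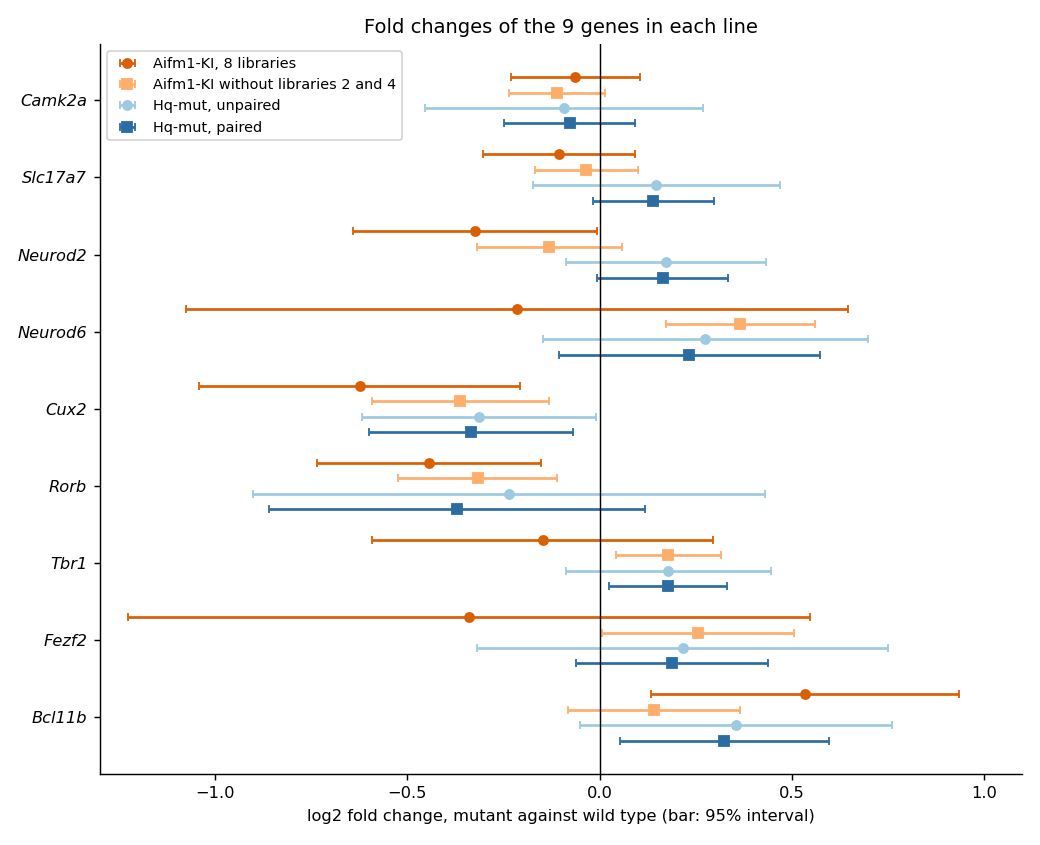
edgeR log2 fold changes of mutant against wild type (x axis, with 95% intervals) for the 9 genes (y axis), in Aifm1-KI with all 8 libraries of the line and without Aifm1-KI 2 and 4, and in Hq-mut without and with the replicate number as a block. Neurod6, Tbr1 and Fezf2 were below 0 in Aifm1-KI and above 0 without Aifm1-KI 2 and 4, while Cux2 and Rorb were below 0 in all 4 fits, none with an adjusted p under 0.05.

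The design also allows the upper and deep layer genes to be set against each other inside a library. For each library the mean log2 CPM of Cux2 and Rorb was taken minus the mean log2 CPM of Tbr1, Fezf2 and Bcl11b, a value in which the scaling of a library cancels, and it is given without a test. It was -0.08, 0.01, -0.03 and 0.13 in Aifm1-KI 1 to 4 and 0.37, 0.63, 0.68 and 0.20 in Aifm1-WT 1 to 4. The mutants were all below the wild types, with means of 0.01 ± 0.09 (SD, n = 4) and 0.47 ± 0.22 (SD, n = 4), a difference of -0.46 on the log2 scale. This difference was -0.18 without Bcl11b, with the groups then overlapping, and -0.53 without Aifm1-KI 2 and 4.

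In Hq-mut 1 to 4 the upper-minus-deep value was -0.76, -0.73, -0.09 and 0.72, and in Hq-WT 1 to 4 it was 0.18, 0.29, 0.55 and 0.46. The first 3 mutant libraries were below all wild types and Hq-mut 4 was above all of them. By pairs the mutant was thus the lower one in pairs 1 to 3 and the higher one in pair 4. The means were -0.22 ± 0.70 (SD, n = 4) and 0.37 ± 0.17 (SD, n = 4). Their difference of -0.59 was smaller than the SD within Hq-mut, which does not take the pairs into account. This difference of means was -0.54 without Bcl11b, and leaving out 1 library at a time it ran from -0.90, without Hq-mut 4, to -0.40, without Hq-mut 1. Between the wild types of the lines the difference was -0.10.

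**Figure D4:**
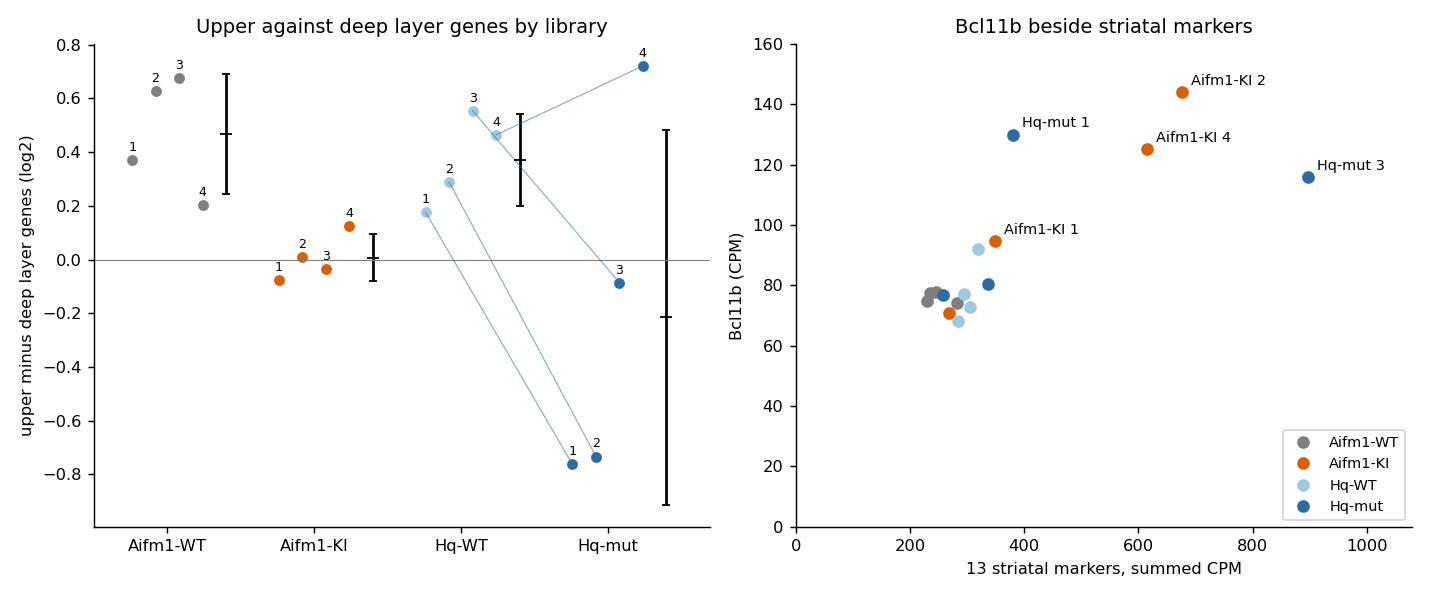
Left, mean log2 CPM of Cux2 and Rorb minus mean log2 CPM of Tbr1, Fezf2 and Bcl11b (y axis) in each library, with mean and SD by group and lines that join same-numbered Hq libraries; all 4 Aifm1-KI libraries lie below the 4 Aifm1-WT libraries, and in Hq only pair 4 goes up. Right, Bcl11b (y axis, CPM) against the summed CPM of 13 striatal markers (x axis) in the 16 libraries, with Aifm1-KI 2 and 4 and Hq-mut 3 farthest to the right.

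Other genes of the same layers were described with lists of 14 upper-layer and 24 deep-layer genes, which include the members. In Aifm1-KI 3 of the 14 upper-layer genes were higher and 11 lower, with a median log2 fold change of -0.31, where the median of all 18383 genes was 0.01. Of the deep-layer genes 15 were higher and 9 lower, with a median of 0.07. edgeR called none of either list, and at an unadjusted p under 0.05 it listed 2 upper-layer genes higher and 4 lower, and 3 deep-layer genes higher and 0 lower, beside 7.05% higher and 4.34% lower over all genes. DESeq2 called 1, Crym, higher, where over all 18383 genes it called 47 higher and 35 lower. Without Aifm1-KI 2 and 4 the upper-layer list had 4 higher and 10 lower, with a median of -0.12, and the deep-layer list 21 higher and 3 lower, with a median of 0.16.

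The upper-layer genes did not move as one in the knock-in. Mdga1, a cell-surface protein of migrating upper-layer neurons, was at 37.7, 44.4, 25.6 and 51.3 CPM in Aifm1-KI 1 to 4 and 23.0 to 31.2 CPM in Aifm1-WT (0.64, adjusted p = 0.368 with edgeR, SE 0.19), opposite to Cux2. Whrn, a PDZ scaffold protein, was at 44.1 to 56.8 CPM against 51.9 to 73.7 CPM (-0.33, adjusted p = 0.395 with edgeR, SE 0.12). Lhx2, a LIM homeodomain factor that patterns the cortex, was lower in every mutant library, at 63.0 to 73.2 CPM against 75.5 to 82.3 CPM (-0.16, adjusted p = 0.417 with edgeR, SE 0.06). With Aifm1-KI 2 and 4 left out, the values were 0.32 for Mdga1, -0.20 for Whrn and -0.12 for Lhx2. Cux2, Rorb and Lhx2 were the 3 genes of the 14 whose groups were apart, beside 2.83% of all genes apart with the mutant lower.

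Of the deep-layer genes in the knock-in, Crym, a thyroid hormone binding protein, was at 52.3, 70.0, 36.2 and 58.5 CPM in Aifm1-KI 1 to 4 and at 27.8 to 37.9 CPM in Aifm1-WT. Its log2 fold change was 0.69 (adjusted p = 0.368 with edgeR, SE 0.17), with a DESeq2 adjusted p of 0.0425. The highest value was in Aifm1-KI 2. Sulf1, a heparan sulfate sulfatase, was at 16.5, 43.1, 12.6 and 23.9 CPM against 10.5 to 17.8 CPM (0.87, adjusted p = 0.411 with edgeR, SE 0.34), and Nxph4, a neurexophilin, was at 2.64, 7.97, 2.85 and 5.24 CPM against 2.27 to 3.56 CPM (0.75, adjusted p = 0.438 with edgeR, SE 0.33). In all 3 genes Aifm1-KI 2 and 4 were the highest of the line, and without these libraries the log2 fold changes were 0.40 for Crym, 0.14 for Sulf1 and -0.07 for Nxph4.

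Pan-excitatory genes, a list of 18 that includes 4 members, were 5 higher and 13 lower in Aifm1-KI, with a median of -0.07. Leaving out Aifm1-KI 2 and 4, they were 10 higher and 8 lower, with a median of 0.05. Emx1, a homeodomain factor of the dorsal forebrain, was lower in every mutant library, at 16.43, 8.33, 16.01 and 11.5 CPM in Aifm1-KI 1 to 4 against 16.46 to 21.9 CPM in Aifm1-WT. Its log2 fold change was -0.62 (adjusted p = 0.368 with edgeR, SE 0.20), and the closest mutant and wild-type values were 16.43 and 16.46 CPM. Over all genes tested 2.83% were apart with the mutant lower. Arpp21, a phosphoprotein of forebrain neurons, at 0.17 (adjusted p = 0.411 with edgeR, SE 0.07), and Ptk2b, a calcium-regulated tyrosine kinase, at 0.19 (adjusted p = 0.424 with edgeR, SE 0.08), were higher. Without Aifm1-KI 2 and 4 Emx1 was at -0.29, Arpp21 at 0.08 and Ptk2b at 0.07. Library by library the list had a median of -0.42 in Aifm1-KI 2 and of 0.07, -0.02 and -0.13 in Aifm1-KI 1, 3 and 4 against the mean of the wild types.

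In Hq-mut the 14 upper-layer genes were 2 higher and 12 lower, with a median of -0.27, or 1 higher and 13 lower with the pairs as a block, with a median of -0.35. The 24 deep-layer genes were 19 higher and 5 lower in both fits, with medians of 0.21 and 0.20, where the median of all genes was 0.01 in both. With the block 6 upper-layer genes were lower and 0 higher at an unadjusted p under 0.05, and 8 deep-layer genes were higher and 1 lower, beside 3.81% higher and 4.16% lower over all genes. edgeR called none of them in either fit, and DESeq2 with the block called 2 upper-layer genes, Whrn and Otof, both lower. Over all 17969 genes that DESeq2 fit called 19 lower and 14 higher. The mutant libraries did not contribute alike. Each was set against the Hq-WT library of the same number. The upper-layer list was lower in 11, 13, 9 and 6 of 14 genes in Hq-mut 1 to 4. Its median log2 differences were -0.56, -0.61, -0.11 and 0.08. The deep-layer list was higher in 20, 14, 18 and 16 of its 24 genes in the same libraries. The medians of that list were 0.288, 0.0743, 0.335 and 0.0848, where those of all genes were 0.0137, 0.0454, 0.0259 and 0.0242.

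Whrn was at 34.0, 32.7, 34.5 and 49.7 CPM in Hq-mut 1 to 4 and at 58.7, 80.1, 49.8 and 48.8 CPM in Hq-WT 1 to 4. Its paired log2 fold change was -0.67 (adjusted p = 0.523 with edgeR, SE 0.18, DESeq2 adjusted p = 0.0329). Otof, which encodes the calcium sensor otoferlin, was at 21.8, 9.89, 17.6 and 18.5 CPM in Hq-mut 1 to 4 and at 44.1, 22.6, 24.1 and 19.4 CPM in Hq-WT 1 to 4. The mutant was lower in all 4 pairs, at -0.71 (adjusted p = 0.523 with edgeR, SE 0.17, DESeq2 adjusted p = 0.0361). In Aifm1-KI the same gene was at 0.90 (adjusted p = 0.419 with edgeR, SE 0.36), higher in libraries 1, 2 and 4 than in any Aifm1-WT library, and at 0.17 without Aifm1-KI 2 and 4. Lhx2 was at -0.19 (adjusted p = 0.607 with edgeR, SE 0.07) in the paired fit.

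Among deep-layer genes of the Harlequin line, Ccn2, a matricellular protein that marks the lowest cortical layer, was higher in every mutant library, at 31.4, 37.0, 32.4 and 32.4 CPM in Hq-mut 1 to 4 against 29.3, 19.3, 25.9 and 24.8 CPM in Hq-WT 1 to 4. Its paired log2 fold change was 0.41 (adjusted p = 0.556 with edgeR, SE 0.13), and 0.857% of all genes were apart with the mutant higher. Syt6, a synaptotagmin, was at 53.5, 34.0, 50.6 and 35.4 CPM in Hq-mut 1 to 4 against 28.5 to 36.4 CPM (0.35, adjusted p = 0.628 with edgeR, SE 0.15). Nr4a2, an orphan nuclear receptor of the deepest cells that also responds to activity, went the other way. It was at 36.0, 38.1, 63.9 and 20.7 CPM in Hq-mut 1 to 4 against 36.5 to 142 CPM (-0.84, adjusted p = 0.553 with edgeR, SE 0.26), and it is the deep-layer gene farthest below 0 in Hq-mut.

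Pan-excitatory genes were 12 higher and 6 lower in Hq-mut, with a median of 0.09. With the pairs as a block they were 11 higher and 7 lower, with a median of 0.08. Bhlhe22, a basic helix-loop-helix factor, was lower at -0.49 (adjusted p = 1 with edgeR, SE 0.21), from 35.4 to 51.5 CPM against 39.0 to 77.7 CPM. Its paired value was -0.46 (adjusted p = 0.632 with edgeR, SE 0.21). Sv2b, a synaptic vesicle protein, was at 0.27 (adjusted p = 0.581 with edgeR, SE 0.09) and Nptxr, a neuronal pentraxin receptor, at -0.17 (adjusted p = 0.623 with edgeR, SE 0.07) in the paired fit. Sv2b was at 906, 610, 537 and 670 CPM in Hq-mut 1 to 4 and 694, 628, 397 and 508 CPM in Hq-WT 1 to 4.

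**Figure D5:**
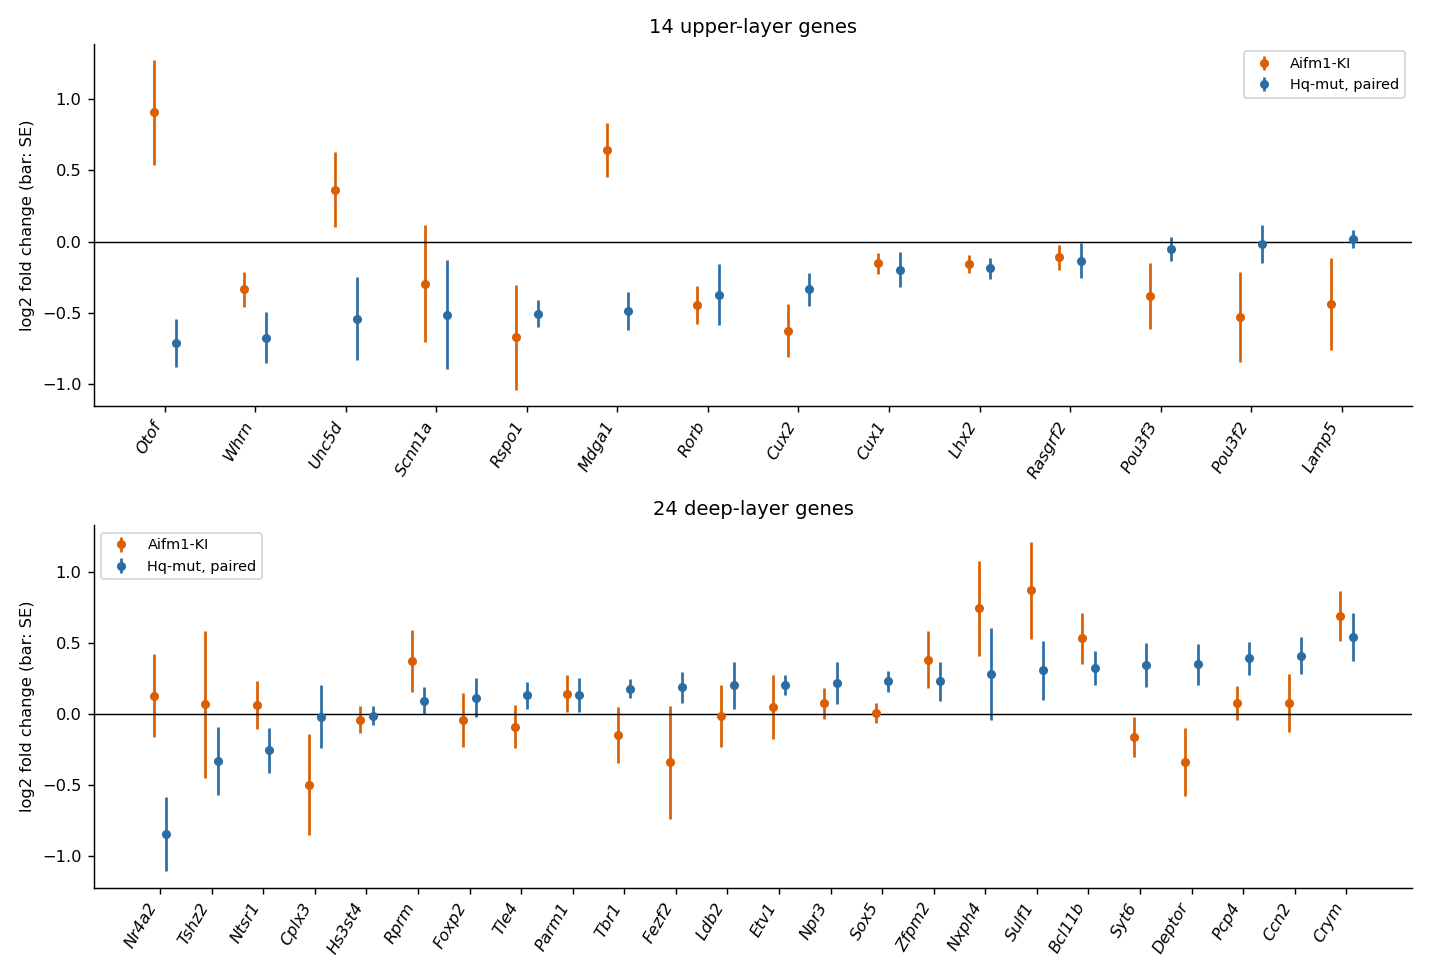
edgeR log2 fold changes (y axis, bars are the SE) of 14 upper-layer genes (top) and 24 deep-layer genes (bottom), sorted by the Hq-mut value within each panel, in Aifm1-KI and in Hq-mut with the replicate number as a block. In Hq-mut 13 of the 14 upper-layer genes lie below 0 and 19 of the 24 deep-layer genes above 0, and in Aifm1-KI Otof, Mdga1 and Unc5d lie above 0.

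Whether the mutants differed in their effect was tested over all 16 libraries as the Hq effect minus the Aifm1-KI effect. edgeR called 2 of 19129 genes (0.0105%) and none of the 9 members, and 972 genes (5.08%) had an unadjusted p under 0.05, 1 of them a member, beside 1.87% with a higher value in Hq over all genes. DESeq2 and limma-voom also called none of the 9. The member was Neurod2, with a difference of effects of 0.50 (SE 0.19, unadjusted p = 0.0189, adjusted p = 0.946 with edgeR). With Aifm1-KI 2 and 4 left out, it was 0.30 (SE 0.16, unadjusted p = 0.0812, adjusted p = 1 with edgeR), and no member then had an unadjusted p under 0.05. For Cux2 the difference was 0.31, with a 95% interval from -0.21 to 0.83. For Rorb it was 0.21, with an interval from -0.55 to 0.98. The intervals of Neurod6, from -0.50 to 1.47, and Fezf2, from -0.52 to 1.61, were the widest of the 9. With the libraries Aifm1-KI 2 and 4 left out, Neurod6 was at -0.10, Fezf2 at -0.05 and Bcl11b at 0.21, the signs of all 3 then being opposite. The Cux2 and Rorb values of the lines come from separate wild types.

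The wild types of the lines allow the members to be read in cortex without a mutation in Aifm1. edgeR called 101 of 18106 genes (0.558%) between Hq-WT and Aifm1-WT and none of the 9 members, and 2304 genes (12.7%) had an unadjusted p under 0.05, 2 of them members, Neurod6 and Neurod2. The mean of Neurod6 was 93.5 ± 9.70 CPM (SD, n = 4) in Hq-WT and 70.7 ± 7.34 CPM (SD, n = 4) in Aifm1-WT, which is higher in Hq-WT by 0.40 on the log2 scale (adjusted p = 0.0954 with edgeR, SE 0.09, DESeq2 adjusted p = 0.00751). The mean of Neurod2 was 112 ± 8.38 CPM (SD, n = 4) in Hq-WT and 135 ± 10.9 CPM (SD, n = 4) in Aifm1-WT, lower in Hq-WT at -0.27 on the log2 scale (adjusted p = 0.195 with edgeR, SE 0.08). The other 7 members lay between -0.17, for Cux2, and 0.10, for Tbr1. Stock, litter and any batch cannot be told apart in the comparison of wild types.

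The genes whose profile over the 16 libraries was closest to each member were found by the root mean square (RMS) difference of log2 CPM after centring each gene on its own mean, among 11993 genes with a mean of at least 5 CPM. This describes likeness in these libraries, which share tissue, depth and any admixed tissue. For Neurod6 the closest were Ephb6, Vxn and Gfra2, with RMS differences of 0.19, 0.21 and 0.21 where the SD of Neurod6 itself was 0.66, and Fezf2 was the 11th, at 0.27. For Fezf2 they were Galnt9, Nxph3 and Dkk3, at 0.22, 0.22 and 0.25, and Neurod6 was the 7th. Both genes were lowest in Aifm1-KI 2 among the 16 libraries.

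Rorb was closest to Nectin3, Lama4 and Gm42528, at 0.19, 0.20 and 0.23, and Cux2 was the 7th, at 0.26. Cux2 was closest to Dleu2, Nr1d1 and Rsad1, at 0.17, 0.19 and 0.19, with Rorb the 77th. Both upper-layer members thus had each other as the nearest of the other 8, as did Neurod6 and Fezf2, and Slc17a7 and Neurod2, at 0.18. Among all genes Neurod2 was the 2169th closest to Slc17a7, and Slc17a7 the 253rd closest to Neurod2. Tbr1 was closest to Herc3, Cobl and Epha4, at 0.10, 0.11 and 0.12, and Neurod2 to Klhl21, Dtx4 and Pheta1, at 0.09, 0.12 and 0.13. Slc17a7 was closest to Basp1, Slc25a44 and Syngr1, at 0.07, 0.07 and 0.08, and Camk2a to Ppp1r9b, Adgrl1 and Prex1, at 0.07, 0.08 and 0.08.

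The closest genes to Bcl11b were Fam102b, Slc7a14 and Gnal, the G protein alpha subunit coupled to dopamine receptors in the striatum, at 0.14, 0.17 and 0.17. The nearest other member was Camk2a, at an RMS difference of 0.38 and the 5261st of 11993 genes, where the median gene was at 0.39. Neither of the other deep-layer members, Tbr1 and Fezf2, was nearer than that. For Camk2a the nearest other member, Slc17a7, was the 7782nd, at 0.30, where the median gene was at 0.26.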

How the data were processed

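The deposited table holds whole-number read counts per gene of 16 libraries, which the authors had not normalized. Per the labels' protocols, TRIzol RNA went into KAPA mRNA libraries. Per the series' design text, 51-base single-end HiSeq reads were cleaned of adapters and low-quality sequence, mapped to mm10 with STAR (2.6 per the submitters' processing notes) and counted with htseq-count. Neither the annotation release nor whether counting used strand is known here, so a gene's reads cannot be separated from those of an antisense gene that overlaps it.

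Comparisons were fitted to the deposited counts with edgeR 4.0.16 in R 4.3.3 (TMM, default filter on low counts, quasi-likelihood F-test, Benjamini-Hochberg over all genes tested, threshold 0.05), tested on simulated data first. Alternatives were DESeq2 1.42.0, limma-voom (limma 3.58.1), other scalings, no filter, left-out libraries and a replicate block. The SE is the fold change over the square root of F. CPM used TMM over all 16 libraries, and log2 CPM a prior count of 2. All 9 members passed the filter in every comparison. Symbols came from GENCODE M21 on GRCm38 (55480 of 55573 IDs).

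Replicate numbers come from the sample titles. Hq libraries with the same number deviated together (r = 0.49 to 0.65 over genes, which are not independent replicates), so the numbers pair them, and Aifm1 libraries did not (r = -0.07 to 0.18). No 2 libraries of a group agreed within sampling noise.

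The members, the 15 lists (146 genes) and the alternatives were chosen with earlier results of these data known. Named beside the members are, per list and line, up to 3 genes with the smallest unadjusted p and a mean of at least 1 CPM, any called gene, and the 3 closest profiles of each member. For the Hq line this p came from the fit without the pairs. In the paired fit some genes not chosen had a smaller p than some chosen ones. Examples are Rspo1 (-0.50, unadjusted p = 0.000577 with edgeR) and Pcp4 (0.39, unadjusted p = 0.00802 with edgeR). Unc5d, Rspo1 and Pcp4 were named after their values were seen. A gene that this rule names is not reported here.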

Additional observations from a re-analysis of the deposited data

Results flagged for a closer look

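Slc17a7 was at 1090 CPM in Aifm1-KI 2, apart from the other libraries of its group, of which the next was at 1360 CPM and the highest at 1400 CPM. The gap was 0.878 of the whole range of the group, past the limit of Dixon's test for 4 samples. It was the only such value found in 40 groups of 4, and chance gives one in about 1 of 20 groups. The same library had 676 CPM of striatal and 2812 CPM of choroid plexus markers, and their part in the value was not tested.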

How the results depend on the processing

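No alternative moved a member across the threshold in either mutant, among those run. Between the wild types, Neurod6 was called with DESeq2 (0.41, adjusted p = 0.00751), without the filter (0.42, adjusted p = 0.0223) and without Hq-WT 3 (0.46, adjusted p = 0.0405). Of the single-gene values, 631 kept direction and call and 23 turned sign, none of them called. Without Aifm1-KI 2 and 4, Neurod6 (0.366), Tbr1 (0.178) and Fezf2 (0.256) turned, and so did the differences of effects of Neurod6 (-0.0956), Tbr1 (-0.00472), Fezf2 (-0.0474), Bcl11b (0.214) and Camk2a (0.0156), a fit added after seeing the data. Camk2a also turned without the filter (difference of effects, 0.0104) and with limma-voom (wild types, -0.00292). The cause was not tested.

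Leaving out 1 library at a time gave log2 ranges that include 0 for Neurod6 (-0.485 to 0.0758) and Tbr1 (-0.293 to 0.0269) in Aifm1-KI and for Camk2a in Hq-mut (-0.19 to 0.0125). The same held for the difference of effects of Rorb (-0.158 to 0.44) and Camk2a (-0.138 to 0.0971), and between wild types for Fezf2 (-0.109 to 0.17), Bcl11b (-0.0685 to 0.072) and Camk2a (-0.0859 to 0.14).

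Counts of called genes moved more. In Aifm1-KI DESeq2 called 82 and edgeR 0 to 46 with 1 library left out, 46 without Aifm1-KI 3. In Hq-mut the count was 1 to 2 with 1 library left out, 1 without pair 2 and 1 without pair 3. With the replicate block edgeR called 3 genes in Hq-mut, the same 3 as without it, and DESeq2 33. The block gave 1 gene without Hq-mut 3, 1 without pair 3, 1 without pair 1, 4 without pair 2 and 4 without pair 4, fits added after seeing the data. It changed no call of a member. In Aifm1-KI, where the numbers do not pair the libraries, the block gave 0 genes. For the difference of effects DESeq2 called 5, limma-voom 1, fits with 1 library left out 1 to 2 and the fit without Aifm1-KI 2 and 4 1. Between wild types the count was 64 with upper-quartile scaling, 560 without the filter, 421 with DESeq2, and 32 (without Aifm1-WT 2) to 231 (without Hq-WT 3) with 1 library left out. The upper-minus-deep difference in Aifm1-KI was -0.177 without Bcl11b and -0.268 over the lists of 14 and 24 genes.

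With 4 libraries a group, some differences could not be detected, and the printed 95% intervals do not mark how large these can be. The interval of Bcl11b in the paired Hq fit, from 0.05 to 0.60, excluded 0 without a call (adjusted p = 0.591 with edgeR). Each member had at least 400 counts in a library, and the part of depth in the missing calls was not tested.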

Other observations

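Markers of other cell types were described by the same counts, and several of these turned when libraries were left out. Unless stated, the Hq-mut values here are from the fit without the pairs. Of 9 inhibitory neuron genes 7 were higher and 2 lower in Aifm1-KI (median log2 fold change 0.07), but 3 higher and 6 lower without Aifm1-KI 2 and 4 (-0.03). In Hq-mut 5 were higher and 4 lower (0.06), and 4 higher and 5 lower without pair 3 (-0.03). All 6 oligodendrocyte genes were lower in Aifm1-KI (median -0.41), with a median of -0.04 without Aifm1-KI 2 and 4. In Hq-mut all 6 were higher (0.17), and all 6 were lower without pair 2 (-0.12). With the pairs as a block and without pair 2, 1 was higher and 5 were lower (-0.09). Of 7 astrocyte genes 4 were higher and 3 lower in Aifm1-KI (0.01), but all 7 were lower without Aifm1-KI 2 and 4 (-0.23). All 5 endothelial genes were lower in Aifm1-KI with these libraries (median -0.38) and without them (-0.30), and 4 of the 5 were lower in Hq-mut (-0.24), where the median was -0.09 without pair 3. edgeR called none of these genes.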
